A study of Mus musculus with 6 samples.

Results

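Macrophages are the tissue-resident phagocytes of the vessel wall and its surrounding connective tissue. They depend on the growth factor CSF1 and its receptor CSF1R for survival, on the transcription factor PU.1 (gene Spi1) for their identity, and on blood monocytes for replacement in many tissues. In arteries, resident macrophages of the adventitia carry the mannose receptor Mrc1 and often Lyve1, while cells that take up lipid or debris carry Trem2 and Gpnmb. The 40 genes described here are macrophage and myeloid lineage genes, taken by name for their roles in this lineage. The rule itself uses no measured value, but the names were chosen with earlier results of these data known. All 40 were named on the array, by 70 of its 45037 probe sets, each of which had that gene as its single symbol. Per gene there were 1 to 5 probe sets.

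Mesenteric arteries, which supply the gut, were profiled in 3 control and 3 knockout mice aged 7 weeks, with 1 Affymetrix array per mouse. Control animals 30, 74 and 75 carried loxP-flanked beta1 integrin alleles and no Cre, and knockout animals 72, 73 and 86 carried the same alleles with sm22alphaCRE, a recombinase driven by a smooth muscle promoter. Every mouse, controls included, was of a mixed background with FVB, SVJ129 and C57BL/6 contributions and was given tamoxifen, 1 mg daily over 14 days, starting at 5 weeks. Cre and the loss of the integrin cannot be told apart, since no control carried Cre. In the labels the number 86 is followed by F and the other 5 numbers by M. The vessels had been cleared of adipose and lymph tissue. Targeted Itgb1 stood at 60.1% of control (log2 difference -0.73, limma adjusted p = 0.127, exact permutation p = 0.1, the smallest that 3 arrays against 3 allow). All 9 smooth muscle markers passed the filter on dim signals, with a list mean of 12.29 to 13.02 on the log2 scale over the 6 arrays. Of the 10654 genes tested, 258 (2.42%) passed an adjusted p of 0.05. No detection calls were used, and the number of arrays limits the precision.

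Levels below are quantile-normalized log2(intensity + 1) values, given in the order controls 30, 74 and 75 and knockouts 72, 73 and 86. Differences are knockout minus control on that log2 scale, which understates changes of dim genes. Where a gene had several probe sets, the brightest on average stands for it, and levels are not compared between genes.

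Most macrophage and myeloid genes lay higher on the knockout arrays, by very different amounts on each array. Of the 40 genes, 37 had a positive difference, and in 20 all 3 knockout arrays lay above all 3 control arrays. The same separation was found in 10.4% of the 18193 genes named on the array. The median difference was 1.46 for the 40 genes against -0.07 for all genes. After the filter 31 of the 40 remained, and 2 of them, the adhesion receptor gene Cd84 and the oxidase subunit gene Ncf1, passed an adjusted p of 0.05, where 1.76% of all genes tested were higher past that threshold. None of the 31 was lower past it, against 0.657% of all genes. Tested by probe set, 2 of the 42 member probe sets above the filter were higher past the threshold, against 1.21% of all probe sets tested. At an unadjusted p under 0.05 there were 19 of the 31, all higher in the knockout, against 9.86% of all genes tested. Between groups 16 of the 31 did not overlap, against 13% of all genes. Of the 31, 5 had a control mean under the filter level of 6.50 and passed through their knockout signal: Cd68, Aif1, Itgax, Ncf1 and Ncf4. Whole arteries were measured, so more macrophages and more of a transcript per macrophage cannot be told apart.

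**Figure D1:**
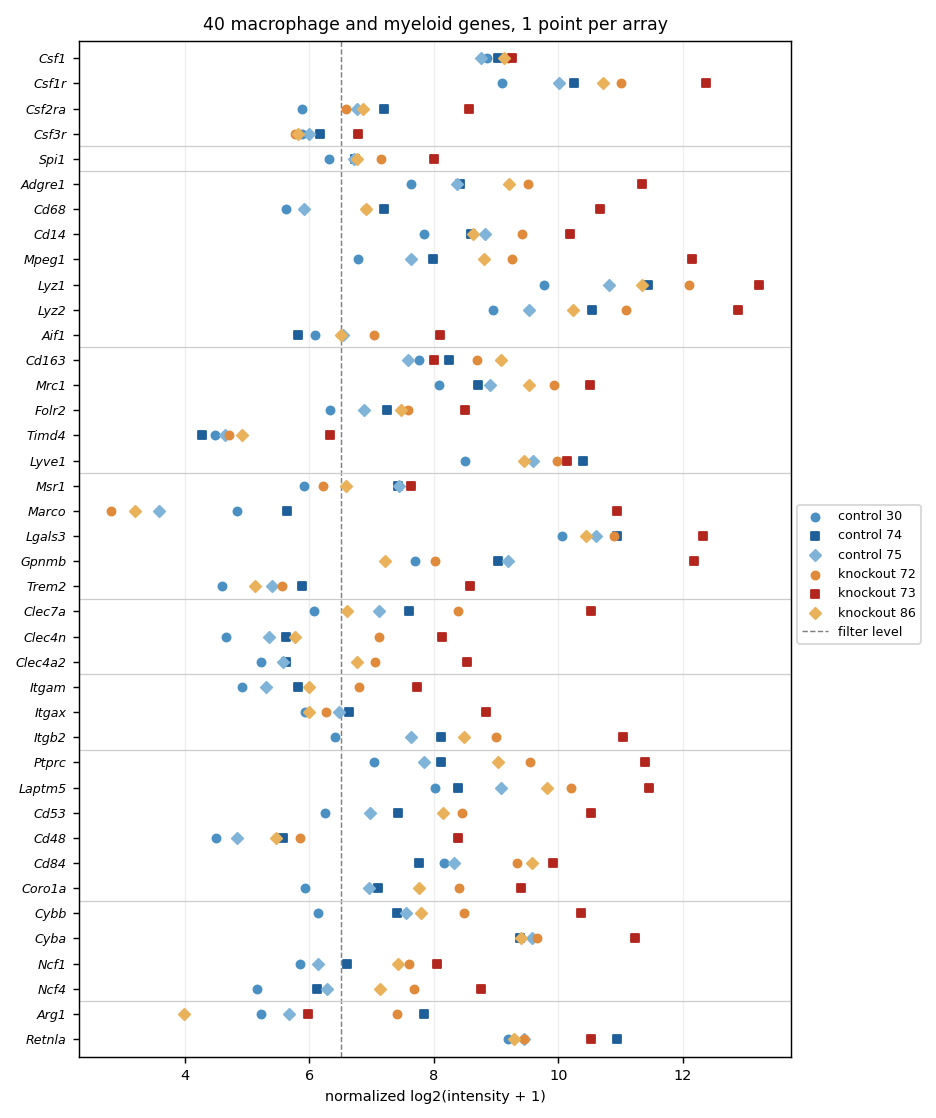
Normalized log2(intensity + 1) on the horizontal axis for each of the 40 genes, grouped by role, with 1 point per array and the filter level of 6.50 as a dashed line. The red squares of knockout 73 lie to the right of the other 5 arrays in 36 of the 40 genes.

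One knockout animal carried much of this shift. Knockout 73 was above all 5 other arrays in 36 of the 40 genes, compared with 15.6% of all genes named on the array, and by at least 1 on the log2 scale in 26 of the 40, compared with 1.53%. Among the 31 genes tested the mean level was 7.31, 8.28 and 8.05 on the control arrays and 8.81, 10.26 and 8.43 on the knockout arrays. Knockouts 72 and 86 thus lay above the control arrays by much less than knockout 73 did. At the other end, control 30 was the lowest of the 6 arrays in 25 of the 31, against 17.9% of all genes tested, and knockout 86 was the lowest knockout array in 27.

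Without knockout 73 the median difference of the 31 genes was 0.99 in place of 1.497, and 27 rather than 29 were positive. In 17 of the 31 the remaining 2 knockout arrays lay above every control array, against 18.1% of all genes. With these 5 arrays limma called 0 of the 31, against 0.779% of all genes higher past the threshold. At an unadjusted p under 0.05 there were 14 of the 31, all higher in the knockout, against 9.02% of all genes. With control 30 left out as well, a choice made after seeing the data, the median difference was 0.60, and limma called 0. At an unadjusted p under 0.05 there were then 13 of the 31 higher, against 9.16% of all genes. Another 2 were lower, Gpnmb and Msr1, which are named after their values were seen. The share of all genes lower was not counted in this setting, so nothing is read from these 2.

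**Figure D2:**
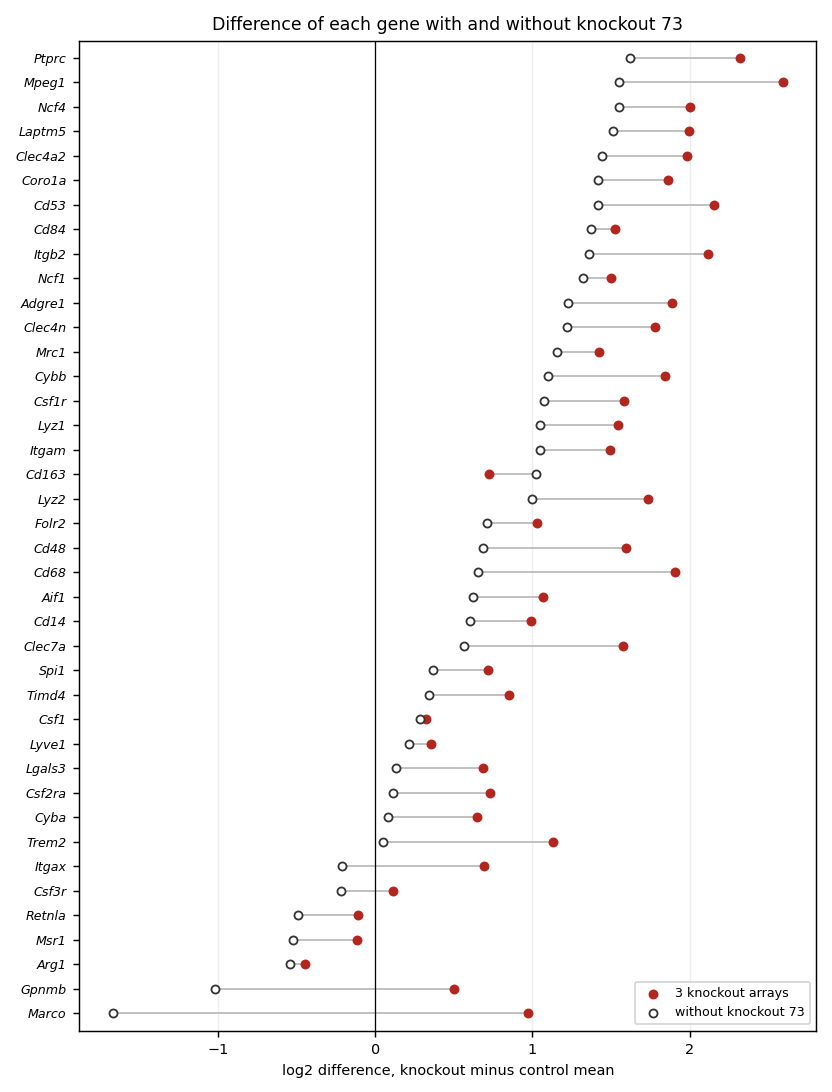
Log2 difference, knockout minus control mean, of each of the 40 genes with all 3 knockout arrays (filled) and without knockout 73 (open). Genes are sorted by the open points, from Ptprc at 1.62 to Marco at -1.67, and the line between the points is longest for Marco. The open point of Marco rests on low signals, and its second probe set stood at 1.07 without knockout 73.

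Of the 6 pan-leukocyte genes, 5 had all 3 knockout arrays above all 3 control arrays, against 10.4% of all genes named on the array. Cd84, a homophilic adhesion receptor of the SLAM family, measured 8.16, 7.76 and 8.33 on the control arrays and 9.34, 9.92 and 9.57 on the knockout arrays. Its groups did not overlap, and knockout 73 stood only 0.46 above the mean of knockouts 72 and 86. Cd84 rose from 8.08 ± 0.29 (SD, n = 3) to 9.61 ± 0.29 (SD, n = 3), a difference of 1.53 (SE 0.21, 2.88-fold, limma adjusted p = 0.0203). It was called in 10 of 17 alternative settings and in 1 of the 6 fits of 5 arrays, that without control 74, with adjusted p-values of 0.0124 to 0.161 over all settings and 0.0542 without knockout 73. A second Cd84 probe set above the filter, 1446505_at, measured 6.69, 8.09 and 6.99 on the control arrays and 7.04, 7.09 and 6.43 on the knockout arrays and went the other way, at -0.40.

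The other pan-leukocyte genes had larger differences and a wider spread. Ptprc, which encodes the phosphatase CD45 found on all nucleated blood cells, measured 7.04, 8.12 and 7.84 on the control arrays and 9.54, 11.38 and 9.02 on the knockout arrays. The groups did not overlap, and its difference was 2.32 (SE 0.61, limma adjusted p = 0.103) and 1.62 (limma adjusted p = 0.106) without knockout 73. Laptm5, a lysosomal membrane protein of blood cells, measured 8.01, 8.39 and 9.08 on the control arrays and 10.20, 11.46 and 9.81 on the knockout arrays, a difference of 2.00 (SE 0.46, limma adjusted p = 0.0782). Of its other 4 probe sets, 3 had differences of 1.58 to 2.13 without overlap, while 1447742_at was lower on every knockout array, at 7.38, 6.94 and 7.04 on the control arrays and 6.60, 6.63 and 6.65 on the knockout arrays. The tetraspanin Cd53 measured 6.25, 7.42 and 6.98 on the control arrays and 8.46, 10.52 and 8.15 on the knockout arrays, a difference of 2.16 (SE 0.63, limma adjusted p = 0.127). The actin-binding protein gene Coro1a, at 5.93, 7.11 and 6.96 on the control arrays and 8.40, 9.40 and 7.77 on the knockout arrays, had a difference of 1.86 (SE 0.47, limma adjusted p = 0.0959). In both the groups were separate. Cd48, a SLAM family ligand below the filter, measured 4.51, 5.58 and 4.84 on the control arrays and 5.85, 8.39 and 5.47 on the knockout arrays, and its groups overlapped, with knockout 86 below control 74. With array weights Ptprc, Laptm5 and Coro1a passed the threshold (limma adjusted p = 0.0426, 0.0429 and 0.0302). In that setting 1131 of all 10654 genes passed in either direction, against 258 without weights.

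Subunits of the phagocyte NADPH oxidase, the enzyme that makes superoxide in the respiratory burst, were without overlap in 3 of 4 genes. The share was 10.4% of all genes named on the array and 13% of those tested. All 4 were tested, Ncf1 and Ncf4 only through their knockout signal, and 1 passed the threshold, against 1.76%. Ncf1, its cytosolic organizer, measured 5.85, 6.61 and 6.13 on the control arrays and 7.60, 8.05 and 7.43 on the knockout arrays. All 3 knockout arrays lay close together and above every control. From 6.20 ± 0.38 (SD, n = 3) in the control to 7.69 ± 0.32 (SD, n = 3) in the knockout, its difference was 1.497 (SE 0.24, 2.82-fold, limma adjusted p = 0.0327). The control mean lay under the filter level of 6.50, so Ncf1 was tested only through its knockout signal, and with no filter it did not pass (adjusted p = 0.0742). It was called in 9 of 16 alternative settings and, among the fits of 5 arrays, only in that without control 74. Its adjusted p-values ran from 0.00618 to 0.121 and stood at 0.0776 without knockout 73. The other Ncf1 probe sets lay below the filter, with differences of 0.42 and 0.24 and overlapping groups.

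The regulatory subunit gene Ncf4 measured 5.16, 6.12 and 6.28 on the control arrays and 7.68, 8.76 and 7.13 on the knockout arrays, with no overlap and a difference of 2.00 (SE 0.46, limma adjusted p = 0.0788), past the threshold with array weights (adjusted p = 0.0294). The control mean of Ncf4 lay under the filter level too, and with no filter its limma adjusted p was 0.151. Cybb, the catalytic chain in the membrane, measured 6.14, 7.41 and 7.55 on the control arrays and 8.49, 10.37 and 7.79 on the knockout arrays, a difference of 1.85 (SE 0.69, limma adjusted p = 0.19). Both held the same order of arrays, with knockout 73 on top. Its membrane partner Cyba, which other oxidases of the vessel wall also use, measured 9.39, 9.38 and 9.58 on the control arrays and 9.66, 11.23 and 9.40 on the knockout arrays, a difference of 0.65 (SE 0.45, limma adjusted p = 0.445). Without knockout 73 the Cyba difference was 0.08, against 1.55 for Ncf4 and 1.10 for Cybb. Of the 8 oxidase partner genes listed besides these, 4 were on the array and 2 were tested. Neither passed: Nox4 at -0.19 and Rac1 at -0.0020, with unadjusted limma p-values of 0.567 and 0.986. With no filter 3 of the 4 had a negative difference and 1, Rac2, a positive one. Rac2, named after its values were seen, stood at 1.07 with overlapping groups (limma adjusted p = 0.409).

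The starts of some of these genes are shown because PU.1 binds purine-rich sites with a GGAA core in many myeloid promoters, and knockout 73 was the highest array in 28 of the 31 genes tested. RefSeq promoters of GRCm38.p6, 250 bases before to 50 after a start, were at hand for 30 of the 40. The letters GAGGAA, on either strand (TTCCTC on the other), were found in 15 of these 30, or 50%, counting any listed start, and in 31.3% of the 27025 genes with a promoter in the table. The letters TATAAA, on either strand, were found in 5 of 30, or 16.7%, and in 15.7% of all. The 4 promoters below belong to both called genes, Cd84 and Ncf1, and to Mrc1 and Itgam, which have 3 matches each. Capitals mark GAGGAA or TTCCTC, and Ncf1 has neither.
Cd84, chr1:171839447-171839746, plus strand: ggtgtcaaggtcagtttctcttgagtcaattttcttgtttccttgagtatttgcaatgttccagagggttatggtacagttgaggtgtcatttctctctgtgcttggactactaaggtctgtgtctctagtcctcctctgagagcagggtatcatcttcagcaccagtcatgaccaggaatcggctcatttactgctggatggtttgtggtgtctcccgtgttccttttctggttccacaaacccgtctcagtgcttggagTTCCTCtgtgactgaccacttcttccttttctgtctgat
Ncf1, chr5:134229576-134229875, minus strand: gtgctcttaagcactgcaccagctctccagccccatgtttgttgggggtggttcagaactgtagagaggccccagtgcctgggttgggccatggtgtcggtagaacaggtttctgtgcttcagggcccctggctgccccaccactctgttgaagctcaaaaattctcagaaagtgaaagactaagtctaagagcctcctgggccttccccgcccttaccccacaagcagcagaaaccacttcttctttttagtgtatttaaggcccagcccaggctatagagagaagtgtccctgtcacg
Mrc1, chr2:14229164-14229463, plus strand: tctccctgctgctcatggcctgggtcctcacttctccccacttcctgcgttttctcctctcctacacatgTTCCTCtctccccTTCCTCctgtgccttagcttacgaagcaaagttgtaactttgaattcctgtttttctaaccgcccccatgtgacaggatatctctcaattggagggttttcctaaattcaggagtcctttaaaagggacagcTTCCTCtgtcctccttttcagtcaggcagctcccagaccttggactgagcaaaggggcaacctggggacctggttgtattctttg
Itgam, chr7:128062390-128062689, plus strand: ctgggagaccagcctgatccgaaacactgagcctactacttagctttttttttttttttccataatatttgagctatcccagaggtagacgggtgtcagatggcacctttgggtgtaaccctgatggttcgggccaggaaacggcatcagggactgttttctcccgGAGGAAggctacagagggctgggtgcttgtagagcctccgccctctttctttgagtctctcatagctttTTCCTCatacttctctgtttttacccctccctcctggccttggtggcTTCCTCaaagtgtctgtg
A match describes these letters and does not show that a factor binds there.

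Receptors for colony-stimulating factors differed among themselves. Csf1r, the receptor on which macrophages depend, measured 9.09, 10.25 and 10.004 on the control arrays and 10.999, 12.37 and 10.71 on the knockout arrays, a difference of 1.58 (SE 0.49, limma adjusted p = 0.136). Its groups did not overlap, and 2 further Csf1r probe sets differed by 1.59 and 1.32 in the same array order. Its ligand Csf1, made largely by stromal and vascular cells, spanned a narrow range, 8.85, 9.03 and 8.75 on the control arrays and 9.20, 9.26 and 9.13 on the knockout arrays. The difference of Csf1 was 0.32 (SE 0.13, limma adjusted p = 0.212), with separate groups, while a second probe set above the filter, 1448914_a_at, stood at -0.06 with overlapping groups. The other CSF1R ligand on the companion list, Il34, measured 6.68, 7.25 and 7.15 on the control arrays and 7.56, 7.53 and 7.57 on the knockout arrays, a difference of 0.52 (limma adjusted p = 0.15).

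For Csf2ra, the receptor chain for GM-CSF, the values were 5.88, 7.20 and 6.76 on the control arrays and 6.59, 8.57 and 6.86 on the knockout arrays. Only knockout 73 lay above the controls, and the difference of 0.73 (SE 0.56, limma adjusted p = 0.489) became 0.11 without it. Csf3r, the G-CSF receptor of neutrophils, was below the filter at 5.88, 6.17 and 5.99 on the control arrays and 5.77, 6.79 and 5.82 on the knockout arrays, and again only knockout 73 exceeded the controls. Spi1 itself measured 6.31, 6.74 and 6.71 on the control arrays and 7.15, 7.999 and 6.76 on the knockout arrays. Its groups were separate, although knockout 86 barely exceeded control 74, and its difference was 0.71 (SE 0.32, limma adjusted p = 0.247). Of the 10 other myeloid transcription factors tested, 0 passed the limma threshold and 3 had an unadjusted p under 0.05. These 3 were Irf5 at 1.47, Irf8 at 1.46 and Maf at 0.54 (adjusted p = 0.0625, 0.176 and 0.18), and the list median was 0.06. The control means of Irf5 and Irf8 lay under the filter level.

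Surface and lysosomal macrophage genes showed some of the widest spread between knockout animals. Adgre1, the F4/80 receptor used to identify mouse macrophages, measured 7.63, 8.41 and 8.37 on the control arrays and 9.51, 11.34 and 9.21 on the knockout arrays, a difference of 1.88 (SE 0.55, limma adjusted p = 0.127). Mpeg1, a pore-forming protein of phagosomes, measured 6.79, 7.99 and 7.63 on the control arrays and 9.25, 12.14 and 8.80 on the knockout arrays. Both separated the groups, and the Mpeg1 difference of 2.59 (SE 0.85, limma adjusted p = 0.149) was 1.55 (limma adjusted p = 0.119) without knockout 73. Cd68, a lysosomal glycoprotein, measured 5.63, 7.21 and 5.92 on the control arrays and 6.91, 10.67 and 6.91 on the knockout arrays. Only knockout 73 exceeded every control, so that a difference of 1.91 (SE 1.03, limma adjusted p = 0.329) was 0.65 without it.

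Cd14, a co-receptor for lipopolysaccharide, measured 7.85, 8.59 and 8.81 on the control arrays and 9.42, 10.19 and 8.63 on the knockout arrays, a difference of 0.99 (SE 0.42, limma adjusted p = 0.235). Its groups overlapped, as did those of Aif1, an actin-binding protein of macrophages, at 6.09, 5.81 and 6.54 on the control arrays and 7.04, 8.10 and 6.50 on the knockout arrays. The Aif1 difference was 1.07 (SE 0.41, limma adjusted p = 0.197). Lyz2, the lysozyme of macrophages, measured 8.94, 10.54 and 9.53 on the control arrays and 11.09, 12.89 and 10.24 on the knockout arrays, with knockout 86 below control 74. Its difference was 1.74 (SE 0.70, limma adjusted p = 0.215) and 0.99 without knockout 73.

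Lysozyme signals named Lyz1 may not be separate from Lyz2 on this array, which was not tested at the level of probes. The Lyz1 probe set with the highest signal, 1436996_x_at, measured 9.77, 11.44 and 10.81 on the control arrays and 12.09, 13.22 and 11.35 on the knockout arrays, and the suffix x marks probes shared with similar sequences. It placed the 6 arrays in the same order as Lyz2 did (limma adjusted p = 0.183, difference 1.55). The Lyz1 probe set without this suffix, 1450822_at, lay far below the filter at 1.51, 4.05 and 3.50 on the control arrays and 4.08, 4.46 and 2.80 on the knockout arrays. Both symbols stand in the counts above.

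**Figure D3:**
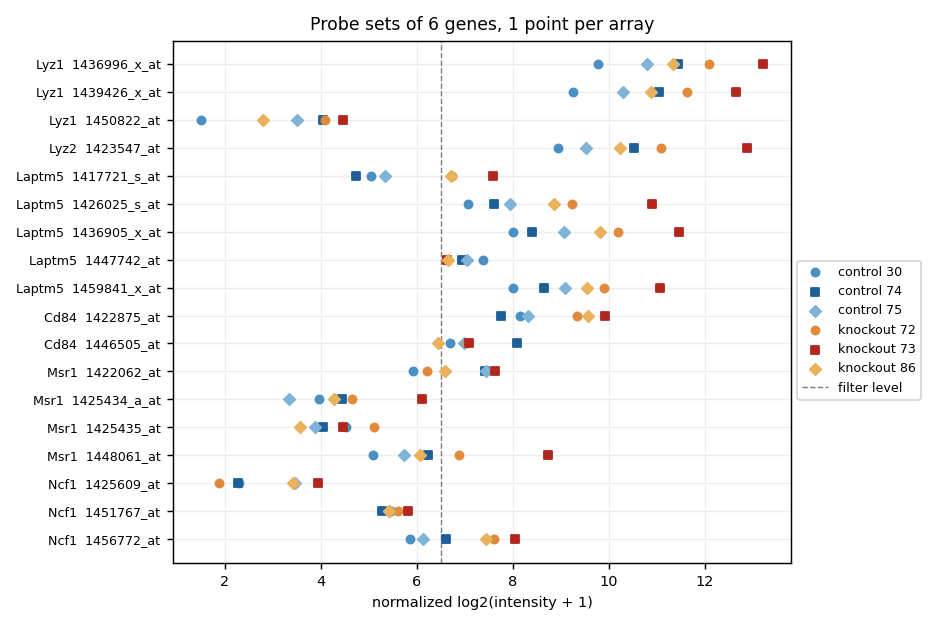
Normalized log2(intensity + 1) on the horizontal axis for every probe set of 6 genes, with 1 point per array and the filter level as a dashed line. Lyz1 has a pair of bright probe sets near Lyz2 and 1 dim one. The probe sets of Laptm5, Cd84, Msr1 and Ncf1 differ within each gene. For Laptm5, 1447742_at is lower on every knockout array, and for Ncf1 only 1456772_at separates the groups.

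Among the 5 genes of resident macrophages, knockout 73 was the highest array in 3, and by at least 1 on the log2 scale in 1. Mrc1 measured 8.09, 8.72 and 8.90 on the control arrays and 9.92, 10.51 and 9.53 on the knockout arrays, with all knockout arrays above all controls. Its difference was 1.42 (SE 0.31, limma adjusted p = 0.0668), 1.16 (limma adjusted p = 0.119) without knockout 73, and past the threshold only with array weights (adjusted p = 0.0247). Folr2, the folate receptor of resident macrophages, measured 6.34, 7.25 and 6.88 on the control arrays and 7.59, 8.49 and 7.48 on the knockout arrays, likewise without overlap, a difference of 1.03 (SE 0.33, limma adjusted p = 0.148). For Cd163, the haemoglobin scavenger receptor, the values were 7.76, 8.25 and 7.59 on the control arrays and 8.69, 7.998 and 9.08 on the knockout arrays. It was the single tested gene of the 31 in which knockout 73 lay below the mean of the other 2 knockouts, and its difference of 0.72 (SE 0.30, limma adjusted p = 0.23) was 1.02 (limma adjusted p = 0.119) without that animal. With array weights Cd163 passed (adjusted p = 0.0478).

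Lyve1, a hyaluronan receptor shared by resident macrophages and lymphatic endothelium, measured 8.50, 10.40 and 9.59 on the control arrays and 9.97, 10.14 and 9.45 on the knockout arrays. No knockout array exceeded control 74, and the difference was 0.36 (SE 0.46, limma adjusted p = 0.688), with a 95% confidence interval of -0.73 to 1.44. The interval takes in both no change and the difference of Mrc1. The 4 tested markers of lymphatic endothelium had list means of 9.58 to 10.23 on the control arrays and 9.50 to 10.05 on the knockout arrays, and 0 passed the limma threshold, with 1 at an unadjusted p under 0.05. Timd4, a phosphatidylserine receptor, stayed below the filter at 4.48, 4.28 and 4.65 on the control arrays and 4.71, 6.32 and 4.91 on the knockout arrays.

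Scavenger and lipid-handling genes were highest in 1 knockout animal. In the brightest probe set of all 5, Msr1, Marco, Lgals3, Gpnmb and Trem2, knockout 73 lay above every control array and knockouts 72 and 86 did not. That pattern was found in 9 of the 40 genes and in 9.03% of all genes named on the array, and the other 4 were Csf2ra, Csf3r, Cd68 and Itgax. Marco, a scavenger receptor for bacteria and particles, measured 4.83, 5.64 and 3.59 on the control arrays and 2.82, 10.94 and 3.21 on the knockout arrays. In deposited intensity, knockout 73 stood at 1924 and the other 5 arrays at 6.09 to 45.2. Its second probe set, 1458297_s_at, measured 1.22, 1.00 and 1.17 on the control arrays and 2.67, 7.18 and 1.72 on the knockout arrays. Both probe sets thus placed the highest signal on the same animal. In the second, knockouts 72 and 86 also lay above every control, at low values. Without knockout 73 the differences were opposite, -1.67 in the brighter probe set and 1.07 in the second. Because the mean lay under the filter Marco was not tested.

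Gpnmb, a glycoprotein of lysosome-rich macrophages, measured 7.69, 9.03 and 9.18 on the control arrays and 8.01, 12.18 and 7.21 on the knockout arrays. In deposited intensity that was 4477 in knockout 73 and 152 to 565 elsewhere. Knockouts 72 and 86 lay below controls 74 and 75, and the difference of 0.50 (SE 1.23, limma adjusted p = 0.844) turned to -1.02 (limma adjusted p = 0.318) without knockout 73. Trem2, a lipid receptor that signals through Tyrobp, measured 4.60, 5.88 and 5.40 on the control arrays and 5.56, 8.58 and 5.13 on the knockout arrays in its brighter probe set and stayed between 1.00 and 2.66 in the other. Lgals3, the galactose-binding lectin galectin-3, measured 10.06, 10.93 and 10.61 on the control arrays and 10.89, 12.33 and 10.44 on the knockout arrays, a difference of 0.69 (SE 0.48, limma adjusted p = 0.451) and 0.13 without knockout 73.

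The probe sets of Msr1, the class A scavenger receptor, disagreed. The brightest, 1422062_at, measured 5.91, 7.43 and 7.44 on the control arrays and 6.22, 7.63 and 6.58 on the knockout arrays, a difference of -0.12 (SE 0.51, limma adjusted p = 0.917). Just under the filter, 1448061_at measured 5.09, 6.23 and 5.74 on the control arrays and 6.87, 8.73 and 6.06 on the knockout arrays, which is 1.53 higher in the knockout on average. There knockout 72 also lay above every control, and knockout 86 lay below control 74. In both, knockout 73 was the highest array.

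**Figure D4:**
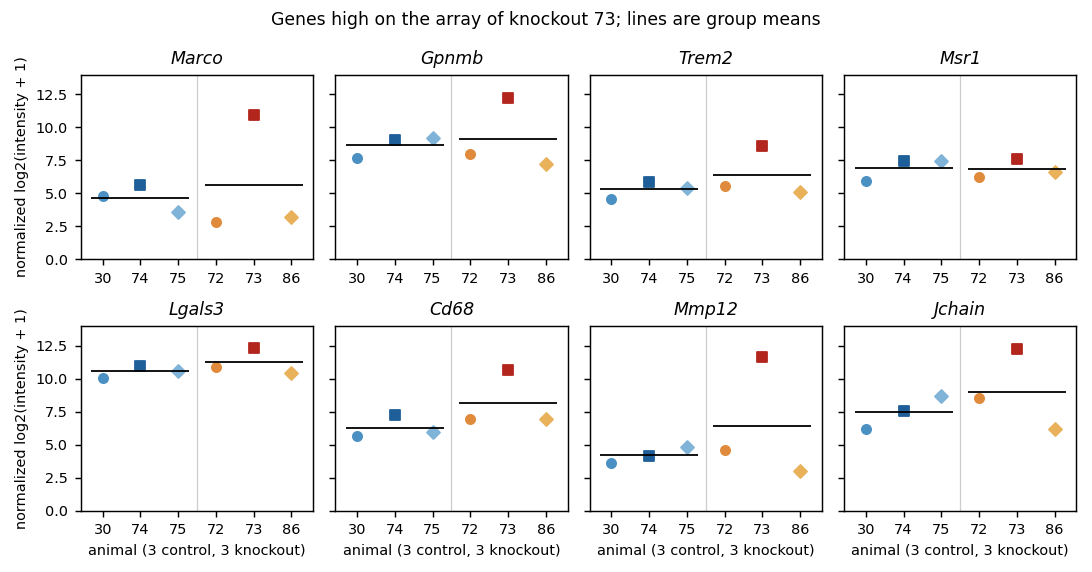
Normalized log2(intensity + 1) on the vertical axis against animal number for 6 member genes and for Mmp12 and Jchain, which were picked after their values were seen. Black lines are group means of 3 arrays, and knockout 73 is the highest of the 6 in each panel.

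Beside these genes, knockout 73 also stood apart in companion genes, which are no members of the 40 and are named here after their values were seen. The macrophage elastase Mmp12 measured 3.60, 4.13 and 4.79 on the control arrays and 4.61, 11.62 and 3.01 on the knockout arrays. Atp6v0d2, a proton pump subunit, measured 3.76, 3.98 and 4.45 on the control arrays and 4.56, 9.61 and 4.60 on the knockout arrays. Both came from the lipid-handling list, whose 10 tested genes held 0 past the limma threshold and 1, Ctsk, at an unadjusted p under 0.05 (difference 1.31, adjusted p = 0.114), with a median of 0.03. Also by the naming rule, Cd9 stood at 0.32 and Lipa at 0.69 (adjusted p = 0.389 and 0.489).

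B cell and plasma cell transcripts were also high in this animal. Of 8 B cell markers on the array, 7 had knockout 73 above all 5 other arrays, and 6 by at least 1 on the log2 scale. Jchain, the joining chain of secreted antibodies, measured 6.21, 7.55 and 8.68 on the control arrays and 8.55, 12.23 and 6.21 on the knockout arrays, and with Mzb1 it was 1 of 2 B cell genes tested (differences 1.52 and 0.43, adjusted p = 0.574 and 0.674). Cd79a, part of the B cell receptor, measured 4.22, 4.09 and 4.56 on the control arrays and 4.48, 7.03 and 3.57 on the knockout arrays. Over the 8 markers the mean was 5.43 to 5.84 on the control arrays and 5.07 to 7.51 on the knockout arrays. The 11 T and NK cell markers on the array, none of which passed the filter, had means of 4.50 to 4.67 on the control arrays and 4.37 to 5.31 on the knockout arrays. The mean of 5.31 was that of knockout 73, which lay above all 5 other arrays in 6 of the 11, against 15.6% of all genes. The part of lymphoid tissue in the values of knockout 73 was not tested.

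Among C-type lectins, which bind fungal and other glycans, the same animal led. Clec7a, the beta-glucan receptor, measured 6.08, 7.59 and 7.11 on the control arrays and 8.38, 10.53 and 6.60 on the knockout arrays, a difference of 1.58 (SE 0.93, limma adjusted p = 0.37) and 0.56 without knockout 73. Knockout 86 lay below controls 74 and 75. Clec4a2, an inhibitory receptor, measured 5.22, 5.62 and 5.57 on the control arrays and 7.05, 8.53 and 6.77 on the knockout arrays. Clec4n, a receptor for fungal mannans, measured 4.67, 5.63 and 5.36 on the control arrays and 7.11, 8.13 and 5.76 on the knockout arrays. Both had separate groups and remained at 1.44 and 1.22 without knockout 73, and neither was tested, since their means lay under the filter. A second Clec4n probe set repeated the separation at 2.21, while a second one of Clec4a2 lay lower still and stood at -0.48. With no filter their adjusted p-values were 0.14 for Clec4a2 and 0.253 for Clec4n.

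Leukocyte integrins pair the beta2 chain with an alpha chain and carry phagocyte adhesion. Itgb2 measured 6.41, 8.12 and 7.63 on the control arrays and 8.9997, 11.03 and 8.49 on the knockout arrays, without overlap, and its difference of 2.12 (SE 0.71, limma adjusted p = 0.157) was 1.36 (limma adjusted p = 0.222) when knockout 73 was left out. Itgam, the alpha chain of the complement receptor Mac-1, measured 4.91, 5.82 and 5.31 on the control arrays and 6.79, 7.73 and 6.00 on the knockout arrays, also without overlap though under the filter. Itgax, the CD11c chain of dendritic cells and some macrophages, measured 5.92, 6.63 and 6.48 on the control arrays and 6.27, 8.83 and 6.00 on the knockout arrays, and only knockout 73 exceeded the controls. Its difference of 0.69 (SE 0.71, limma adjusted p = 0.609) changed sign to -0.21 without that array. For the beta2 chain and Itgam all 3 knockout arrays thus lay above every control, and for Itgax 1 did. For Itgam knockout 86 exceeded control 74 only narrowly, and with no filter the Itgam limma adjusted p was 0.234.

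The 2 member genes grouped here under alternative activation, Retnla and Arg1, did not share the pattern. Mrc1 was grouped with the resident macrophage genes, and its values are given there. Retnla, a secreted protein induced by interleukin-4, measured 9.19, 10.93 and 9.45 on the control arrays and 9.45, 10.52 and 9.28 on the knockout arrays, a difference of -0.11 (SE 0.52, limma adjusted p = 0.926) with a 95% confidence interval of -1.33 to 1.12. Arg1, the arginase, measured 5.23, 7.83 and 5.67 on the control arrays and 7.42, 5.98 and 3.99 on the knockout arrays and was under the filter. In both, as in Lyve1, control 74 was the highest of the 6 arrays. Of 3 further alternative activation genes tested, Clec10a stood at 0.94, Mgl2 at 0.53 and Il4ra at 0.20, and 0 passed in limma or had an unadjusted p under 0.05. Of the 8 genes of this companion list on the array, Clec10a and Mgl2 included, 3 had knockout 73 as the highest array, against 15.6% of all genes. None of the 8 had separate groups. Of 10 classical activation genes 0 passed the filter. With no filter 2 of those 10, named after their values were seen, passed limma's threshold, against 0.863% of all genes. Il6 measured 3.38, 4.19 and 4.06 on the control arrays and 8.36, 7.58 and 6.88 on the knockout arrays, a difference of 3.73 (adjusted p = 0.0215), and Ptgs2 measured 4.83, 4.31 and 4.26 on the control arrays and 7.55, 7.01 and 8.68 on the knockout arrays, a difference of 3.28 (adjusted p = 0.0357). In neither was knockout 73 the highest array, and many cells besides macrophages make both transcripts.

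Other macrophage genes, listed as companions, had list means in the same order of arrays as the member genes. Of 20 listed, 13 were tested, all 13 had a positive difference, 10 had separate groups, against 13% of all genes, and 1 passed the threshold, against 1.76%. With no filter, 18 of the 19 on the array had a positive difference and 1 a negative one. Of these 19, 13 had separate groups, against 10.4% of all genes. The mean of the 13 tested was 7.81, 8.68 and 8.59 on the control arrays and 9.59, 10.70 and 9.24 on the knockout arrays. Ccr2, the chemokine receptor of inflammatory monocytes, was 2.35 higher (SE 0.28, 5.11-fold, limma adjusted p = 0.0133) and measured 5.22, 5.91 and 5.78 on the control arrays and 8.31, 8.20 and 7.46 on the knockout arrays. Its control values were all under the filter level, so it entered the test through its knockout signal. With no filter its adjusted p was 0.031. Knockouts 72 and 73 were level in Ccr2, and it remained past the threshold without knockout 73 at 2.25 (adjusted p = 0.0448). Clec4a3 stood at 2.14 and C1qa, a chain of complement C1q, at 1.29, the control mean of Clec4a3 being under the filter (adjusted p = 0.0722 and 0.0773).

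Marker lists of other cells are given for the same arrays. White adipocyte markers had means of 9.23, 11.25 and 10.72 on the control arrays and 10.41, 10.13 and 9.27 on the knockout arrays. Control 30 was thus lowest both there and in the macrophage genes, and knockout 86 was the lowest knockout array in both. Of 7 adipocyte genes tested 0 passed in limma, with 1, Slc2a4, at an unadjusted p under 0.05 (difference -1.20, adjusted p = 0.087). Fabp4 stood at -0.20 and Lep at -0.57. Blood endothelial markers had means of 11.05 to 11.22 on the control arrays and 10.53 to 10.99 on the knockout arrays, and smooth muscle markers of 12.45 to 13.02 on the control arrays and 12.29 to 12.61 on the knockout arrays. Proliferation markers, at 5.92 to 6.15 on the control arrays and 9.73 to 10.49 on the knockout arrays, separated the groups without singling out knockout 73, and all 5 tested passed the threshold with and without the filter, their control means being under it. Among them Top2a was higher by 4.26, Mki67 by 4.001 and Cdk1 by 4.44 (limma adjusted p = 0.00103, 0.00103 and 0.00132). The smooth muscle genes Lmod1, Myh11 and Tagln stood at -1.20, -0.46 and -0.33 (adjusted p = 0.0567, 0.133 and 0.231). Neutrophil markers had means of 4.34 to 5.06 on the control arrays and 4.39 to 4.88 on the knockout arrays over the 9 on the array, of which S100a8 alone was tested, at 0.09. The part of adipose tissue and of the other cell types in the macrophage values was not tested.

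**Figure D5:**
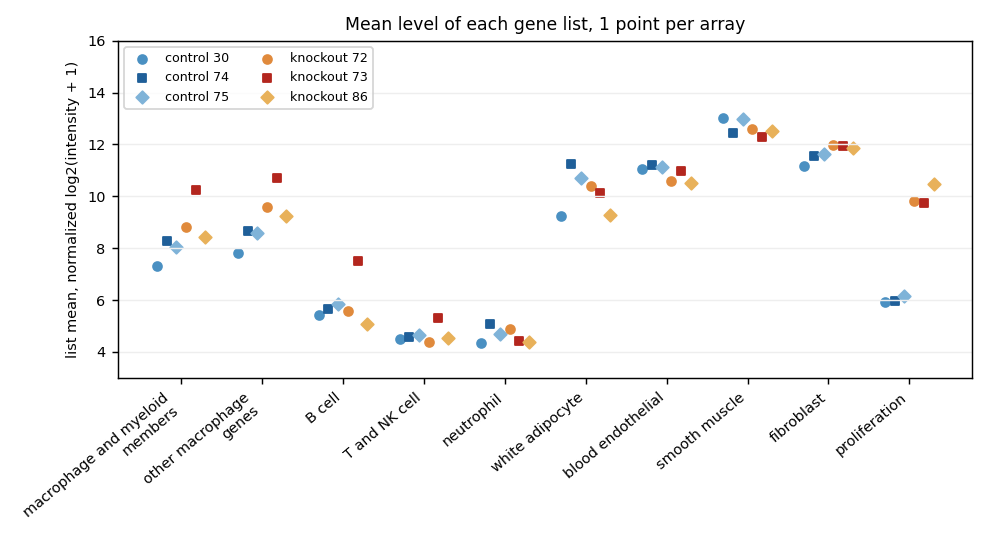
Mean normalized log2(intensity + 1) of each gene list on the vertical axis, with 1 point per array, the B cell, T and NK cell and neutrophil lists including genes under the filter. Knockout 73 is the highest array for the macrophage, B cell and T and NK cell lists, and the proliferation list separates all 3 knockout from all 3 control arrays.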

How the data were processed

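Total RNA from 6 mice, 3 per group, was labelled with biotin and hybridised to 1 array each. The authors deposited 1 linear intensity per probe set and array; the sources used here do not say how probes were summarised or arrays scaled. Symbols came from the 2016 platform annotation (34945 with 1 symbol, 932 with several, 9160 with none), and 1 probe set listing a member beside another gene was left out. All 45037 probe sets entered quantile normalization, on log2(intensity + 1) of the deposited values. Probe sets whose mean lay under the median over those with 1 symbol, 6.50, were left out, and each gene was represented by its brightest probe set, which gave 10654 genes. The knockout was set against the control in limma 3.58.1 under R 4.3.3 (lmFit and eBayes, 2-sided), with Benjamini-Hochberg adjustment over all genes tested. The procedure was tested on simulated data. Array medians lay between 62.8 and 72.6.

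Companion lists, like the members, were chosen with earlier results of these data known. All 40 members may be named; of each companion list the 3 genes with the smallest p are named, and other genes are marked. No replicate number is shared between groups. The 15 alternatives were other filters, gene summaries and normalizations, 16 as pseudocount, array weights, a robust trended prior and leaving out each array. Another 2, added after seeing the data, took the filter level from all probe sets or left out control 30 and knockout 73 together. Promoters came from RefSeq (GRCm38.p6). Protein sequences were not analysed here.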

Additional observations from a re-analysis of the deposited data

How the results depend on the processing

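No paired analysis was possible because the control and knockout animals share no replicate number. Over 17 alternatives, 0 members were called lower by limma in any setting. The count of called members was 1 with no filter, with the 70th percentile filter (18 members tested) or with the mean of all probe sets. It was 8 with array weights and 0 without control 30 and knockout 73 together. With array weights 1131 of all 10654 genes passed in either direction, against 258 without weights, so calls rose over the whole array too. With no filter 0.863% of all genes were higher past the threshold. Leaving out 1 array gave 0 to 2 called members, with 2 only without control 74, and 10 to 20 members at an unadjusted p under 0.05, all higher and fewest without control 30, against 7.2% to 9.76% of all genes. Separate groups were found for 9 of 18 members with the 70th percentile filter, a setting in which the share of all genes was not counted. With 1 array left out they were found for 16 to 22 members, against 15.3% to 18.5% of all genes. The median difference was 0.60 without control 30 and knockout 73 together and 0.99 to 1.63 with 1 array left out. All genes past the threshold in either direction numbered 141 of 7275 with the 70th percentile filter and 265 of 10654 with the mean of all probe sets. They numbered 139 without both arrays and 45 to 240 with 1 array left out. Companion genes past the threshold numbered 4 with the 70th percentile filter and 18 with array weights, against 7. Itgb1 passed with array weights (-0.78, adjusted p = 0.0314) as the targeted gene.

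Of 514 values of single members, 479 kept direction and call, 14 lost the call, 6 gained it with array weights and 15 changed sign, none of them called. Without control 30 and knockout 73 together the sign changed for Csf2ra (-0.25), Lyve1 (-0.28), Lgals3 (-0.10), Gpnmb (-1.49) and Itgax (-0.42). Without knockout 73 it changed for Gpnmb (-1.02) and Itgax (-0.21), without control 30 for Lyve1 (-0.14), and with array weights for Gpnmb (-0.36). Msr1 turned to 0.13 without control 74, 0.14 without control 75 and 0.18 without knockout 72. Retnla turned to 0.43 without control 74, 0.04 without knockout 72 and 0.13 without knockout 86. Where fewer arrays or genes were tested that is part of the setting, and otherwise the cause was not tested. With 1 array left out, Lyve1 reached up to 0.81, Msr1 down to -0.63, Gpnmb up to 1.47, Itgax up to 1.21 and Retnla down to -0.49. Signals near the lowest deposited values cannot be ranked.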

Other observations

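Fibroblast markers lay higher on the knockout arrays, with list means of 11.16 to 11.63 on the control arrays and 11.86 to 11.97 on the knockout arrays and without singling out knockout 73. Of 7 tested, 1 passed the threshold: Col1a1, the main chain of fibrillar collagen, at 1.23 (limma adjusted p = 0.0309, and 0.0733 with no filter), while the matrix proteoglycan Lum stood at 0.83 and the growth factor receptor Pdgfra at 0.75 (adjusted p = 0.14 and 0.173). Of 2 dendritic cell markers tested, 0 passed in limma. Over the 8 on the array, list means were 4.95 to 5.21 on the control arrays and 5.39 to 5.85 on the knockout arrays. With no filter 4 of the 8 had separate groups, against 10.4% of all genes, and 0 passed in limma. Zbtb46, a transcription factor of conventional dendritic cells that endothelial cells also make, stood at 0.54 and was at an unadjusted p under 0.05 (adjusted p = 0.1002), and Itgae stood at 0.07 (adjusted p = 0.883).

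All 9 blood endothelial genes tested had a negative difference and 0 passed in limma, with 4 at an unadjusted p under 0.05. By the naming rule, the angiopoietin receptor Tek stood at -0.62, the nitric oxide synthase Nos3 at -0.58 and the adhesion molecule Pecam1 at -0.86 (adjusted p = 0.091, 0.116 and 0.123). The lymphatic genes Mmrn1, Reln and Pdpn stood at -0.36, -0.50 and 0.58. Genes of the growth factor receptor companion list besides Il34 were Il3ra at 0.49 and Csf2rb2 at 0.69, and 0 of 4 tested passed in limma, with 1 at an unadjusted p under 0.05. Mast cell, mesothelial and erythroid markers held no gene above the filter, with means over all their genes of 4.63 to 4.96 on the control arrays and 4.73 to 5.10 on the knockout arrays, 4.04 to 4.79 on the control arrays and 4.08 to 4.91 on the knockout arrays and 4.40 to 5.23 on the control arrays and 4.39 to 4.88 on the knockout arrays, in that order.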
